A study of Homo sapiens with 3 samples.

Results

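The chemokine genes CXCL1, CXCL2, CXCL3, CXCL8 and CCL20 and the cytokine genes IL1A, IL1B, IL18, IL1RN and IL6 were followed in GFP-SAS cells after siRNA treatment against AKT1. They are 10 of the 18239 genes that the arrays measured with a probe set of their own, and all 17 probe sets annotated to 1 of them alone are described. The labels give GFP-SAS cells as the SAS line, a long-established cancer line from a human tongue. All cells received a small interfering RNA (siRNA), double-stranded RNA that marks mRNA of matching sequence for cutting, at 10 nM for 24 h. A non-targeting siRNA (siNT) was used in 1 library, and siAkt1-22 and siAkt1-58, both against AKT1, in 1 library each, labelled as control and as knockdown. A single tumour line stands for the tissue, and the labels do not say whether the libraries came from separate cultures. The comparison asks which transcripts stand higher or lower once AKT1 mRNA is reduced. The 10 genes were chosen with their differences between these libraries already known, so those differences are a description and carry no test.

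CXCL1, CXCL2, CXCL3 and CXCL8 encode small secreted chemokines that draw neutrophils through the receptors CXCR1 and CXCR2, and CCL20 encodes the ligand of CCR6, which draws dendritic cells and T cell subsets. IL1A and IL1B encode the agonists of the interleukin-1 receptor, IL1RN the antagonist of the same receptor, and IL18 a related cytokine that is stored as a precursor in epithelial cells. Interleukin-1 acts through MYD88, IRAK kinases and the IKK complex on NF-kB, and squamous epithelium and its tumours are known sources of these ligands. Chemokine genes and IL6 are textbook targets of NF-kB, and their short-lived mRNAs are also controlled through decay.

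Expression is given on the log2 scale for a probe set, and a difference is a siAkt1 library minus the siNT library, so that 1 unit is 2-fold. AKT1, the target of both siRNAs, read 6.75 with siNT, 3.67 with siAkt1-22 and 3.47 with siAkt1-58 in its brightest probe set, both siAkt1 readings below the filter level of 3.93 (the 30th percentile of gene means). A dimmer AKT1 probe set was at -1.23 and -1.29, the last read 3.47 in all 3 libraries, and the mean over the 3 was at -1.44 and -1.52. In 680 genes the siAkt1-22 library was 2-fold or more above or below both of the others, against 256 genes for siAkt1-58 and 244 for siNT. In the siAkt1-22 library the 24 probe sets of the poly-A control RNAs, which are added to a sample ahead of labelling, were at a median of -0.56, against -0.01 with siAkt1-58, and the actin gene ACTB was at -3.09, against 0.21. Every result below is therefore given for each siRNA apart. Of 17 squamous epithelial markers, 12 were at or above the filter level, KRT5, KRT18, EPCAM and CDH1 among them, and KRT14 was below it. Of 12 leukocyte markers, 4 reached that level (CD68, CD2, CSF1R and TYROBP). CD68 read 6.33 with siNT, 6.75 with siAkt1-22 and 7.14 with siAkt1-58, differences of 0.42 and 0.81. CD2 was at 0.07 and 0.12, CSF1R at 0.06 and 0, and TYROBP at 0 with both siRNAs. PTPRC and CD14 stood at 2.89 and 2.90 with siNT and at a difference of 0 with both siRNAs. ITGAM, another leukocyte marker, was below the filter level on average and at a difference of 1.39 with siAkt1-22. The log2 values of the 11 leukocyte markers with a probe set summed to 41.5 with siNT, 43.3 with siAkt1-22 and 42.5 with siAkt1-58.

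The siRNAs were followed by different patterns in this family. With siAkt1-58 the chemokine genes CXCL8, CXCL1 and CCL20 were at least 2-fold lower than with siNT, and with siAkt1-22 they were not. With siAkt1-22 the interleukin-1 genes IL1A and IL1B were at least 2-fold lower and IL6 was at least 2-fold higher, and with siAkt1-58 they were not. These calls use the brightest probe set of a gene. In the mean of their probe sets, CXCL1 with siAkt1-58 (-0.98) and IL6 with siAkt1-22 (0.69) were short of 2-fold. No member was at least 2-fold from siNT in the same direction with both siRNAs. The libraries read RNA pooled over a culture, so fewer expressing cells and less RNA per cell cannot be told apart.

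Of the 9 members at or above the filter level, 2 were at least 2-fold lower and 1 at least 2-fold higher with siAkt1-22. Over all 12779 genes at that level, 5.97% were at least 2-fold lower and 4.4% at least 2-fold higher. With siAkt1-58, 3 of the 9 were at least 2-fold lower and 0 higher, against 3.58% and 1.54% of all genes. The members were chosen on these differences, so nothing is read from these shares. The median difference of the 9 members was -0.15 with siAkt1-22 and -0.88 with siAkt1-58, and the median over all genes was 0 with each siRNA. With both siRNAs together, 0 members were at least 2-fold lower, against 1.17% of all genes, and 0 at least 2-fold higher, against 0.736%. The siRNAs lay on opposite sides of siNT for 3 of the 9 members (CXCL2, IL6 and IL18) and for 25.6% of all genes. Both were below siNT for 5 of the 9 (CXCL1, CXCL8, CCL20, IL1A and IL1B) and for 21.4% of all genes. CXCL8 with siAkt1-22 was 0.07 above siNT in the mean of its probe sets and so did not keep this side.

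**Figure D1:**
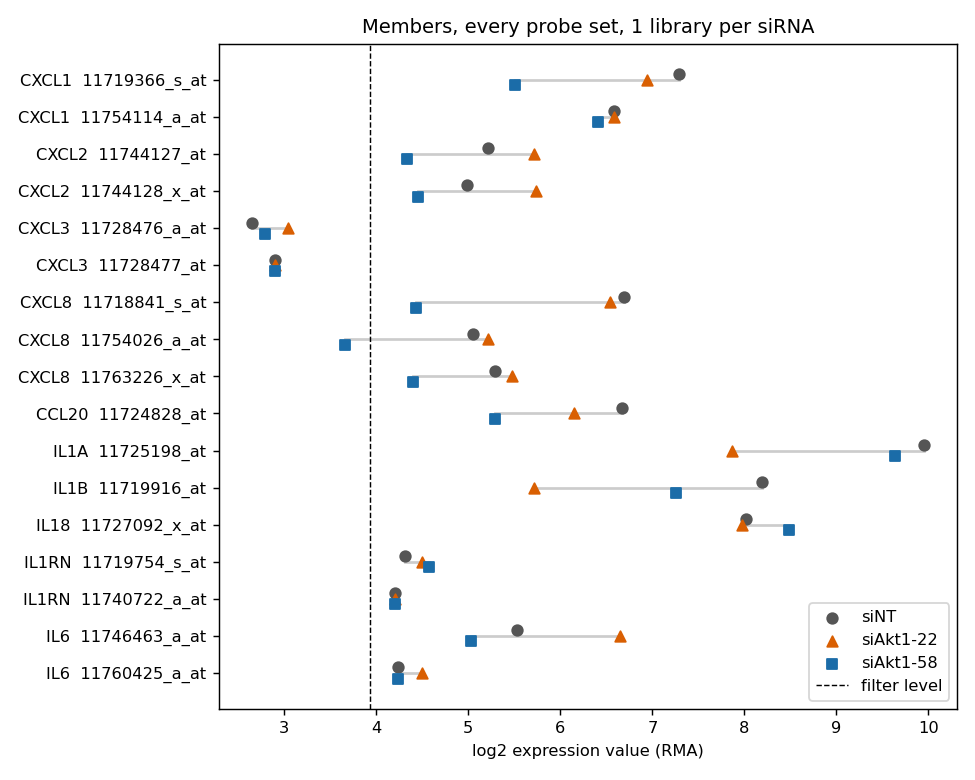
Log2 expression value (x axis) of every probe set of the 10 members in the siNT (circle), siAkt1-22 (triangle) and siAkt1-58 (square) libraries, with the filter level of 3.93 as a dashed line. The siAkt1-58 library is lowest in all 3 CXCL8 probe sets, the siAkt1-22 library is lowest for IL1A and IL1B, and both CXCL3 probe sets lie below the filter level.

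Among the chemokines, CXCL8 showed the widest gap between the siRNAs. Its brightest probe set (11718841_s_at) read 6.70 with siNT, 6.55 with siAkt1-22 and 4.43 with siAkt1-58. The siAkt1-58 library was 4.80-fold lower than siNT, while the siAkt1-22 library lay close to siNT. The remaining CXCL8 probe sets kept the siAkt1-58 library lowest, at 5.05, 5.22 and 3.66 (11754026_a_at) and at 5.29, 5.47 and 4.40 (11763226_x_at) in the order siNT, siAkt1-22 and siAkt1-58. Their differences were 0.16 and -1.39, and 0.19 and -0.89. The size of the CXCL8 difference therefore depended on the probe set, and its direction with siAkt1-58 did not. The mean difference of both siAkt1 libraries in the brightest probe set was -1.21 ± 1.49 (SD, n = 2), an SD larger than the mean. With siAkt1-58, CXCL8 was number 35 from the lowest of 12779 genes.

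CXCL1, which shares its receptor CXCR2 with CXCL8, read 7.29 with siNT, 6.94 with siAkt1-22 and 5.51 with siAkt1-58 in its brightest probe set (11719366_s_at). The siAkt1-58 library was 3.45-fold lower than siNT there. A second CXCL1 probe set (11754114_a_at) read 6.59, 6.59 and 6.41, a difference of -0.18 with siAkt1-58. The 2 probe sets thus gave different sizes, and their mean was -0.98 with siAkt1-58, short of 2-fold. A probe set annotated to CXCL1 and CXCL2 together is no member by the rule and was dim, at 3.08, 3.03 and 3.03.

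CXCL2 read 5.21 with siNT, 5.72 with siAkt1-22 and 4.33 with siAkt1-58 in its brightest probe set (11744127_at), and 4.98, 5.74 and 4.46 in the other (11744128_x_at). In both probe sets the siAkt1-22 library was highest and the siAkt1-58 library lowest, with differences of 0.51 and -0.88, and of 0.75 and -0.53. The siRNAs were 2.61-fold apart in the brightest probe set. CXCL3, a near copy of CXCL1 and CXCL2, was below the filter level in both of its probe sets. It read 2.90 in each library in 1 of them (11728477_at) and 2.65, 3.04 and 2.79 in the other (11728476_a_at), so no difference could be measured at this signal. Probe sets with the suffix _x_at or _s_at can read more than 1 transcript, and for these similar genes the signal of relatives cannot be separated.

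CCL20 had 1 probe set (11724828_at), which read 6.67 with siNT, 6.15 with siAkt1-22 and 5.30 with siAkt1-58. Both siAkt1 libraries were below siNT, 1.43-fold with siAkt1-22 and 2.59-fold with siAkt1-58. The mean difference was -0.95 ± 0.61 (SD, n = 2).

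The start regions of the chemokine genes are shown because CXCL1, CXCL2 and CXCL3 are near copies there and carry the same NF-kB match. Whether a match bears on the expression values was not tested. Each line gives the 120 bases before the RefSeq start site, 5′ to 3′ on the gene's strand (GRCh38.p14), and capitals mark matches to the motifs named after the lines.
CXCL1: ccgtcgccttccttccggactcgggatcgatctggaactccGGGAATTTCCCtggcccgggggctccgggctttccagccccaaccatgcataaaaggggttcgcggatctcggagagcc
CXCL2: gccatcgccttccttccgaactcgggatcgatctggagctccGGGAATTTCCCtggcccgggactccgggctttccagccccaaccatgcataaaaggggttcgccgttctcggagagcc
CXCL3: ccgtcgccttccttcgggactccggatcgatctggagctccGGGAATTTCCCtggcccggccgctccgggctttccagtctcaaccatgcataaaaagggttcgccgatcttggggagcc
CXCL8: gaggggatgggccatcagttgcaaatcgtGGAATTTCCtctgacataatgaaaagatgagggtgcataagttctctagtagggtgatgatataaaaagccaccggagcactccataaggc
CCL20: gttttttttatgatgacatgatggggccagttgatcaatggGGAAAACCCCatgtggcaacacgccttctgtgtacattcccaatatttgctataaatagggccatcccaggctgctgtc
IL6: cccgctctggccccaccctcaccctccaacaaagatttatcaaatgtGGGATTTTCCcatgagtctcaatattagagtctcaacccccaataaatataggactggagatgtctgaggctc
IL1A: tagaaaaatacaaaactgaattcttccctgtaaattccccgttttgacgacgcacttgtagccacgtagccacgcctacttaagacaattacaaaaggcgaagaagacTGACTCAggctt
These stretches are chr4:73869273-73869392 (plus strand) for CXCL1, chr4:74099196-74099315 (minus strand) for CXCL2, chr4:74038690-74038809 (minus strand) for CXCL3 and chr4:73740449-73740568 (plus strand) for CXCL8. CCL20 is chr2:227813722-227813841 (plus strand), IL6 chr7:22727080-22727199 (plus strand) and IL1A, at the upstream of its 2 start sites, chr2:112784494-112784613 (minus strand).

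The motifs searched, on both strands of the 250 bases before each start, were the NF-kB consensus, the NF-kB-like run of 9 letters GGAATTTCC, which not every match of the consensus holds, and the AP-1 motif TGANTCA. In CXCL1, CXCL2 and CXCL3 the first 2 overlap in a run of 11 bases that begins 79, 78 and 79 bases before the start. The NF-kB consensus matched in 5 of the 9 members with an entry (CXCL1, CXCL2, CXCL3, CCL20 and IL6) and in 11.8% of all 27305 genes with an entry (9.96% of 35116 single start regions). GGAATTTCC matched in 4 (CXCL1, CXCL2, CXCL3 and CXCL8), against 0.502% of all genes (0.413% of start regions). TGANTCA matched in 3 (CXCL8, IL1A and IL1RN), against 8.06% of all genes (6.57% of start regions), and a gene with several start sites counted once where any of them matched. IL1B had no match in this window. Over the 120 bases CXCL1 was 93.4% identical to CXCL2 and 90.8% to CXCL3, and 46.1% to CXCL8, so the first 3 do not count as separate cases of a match. A match is a description of the letters and no measure of binding. The shares are given for scale, and an excess of matches among the members was not tested.

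**Figure D2:**
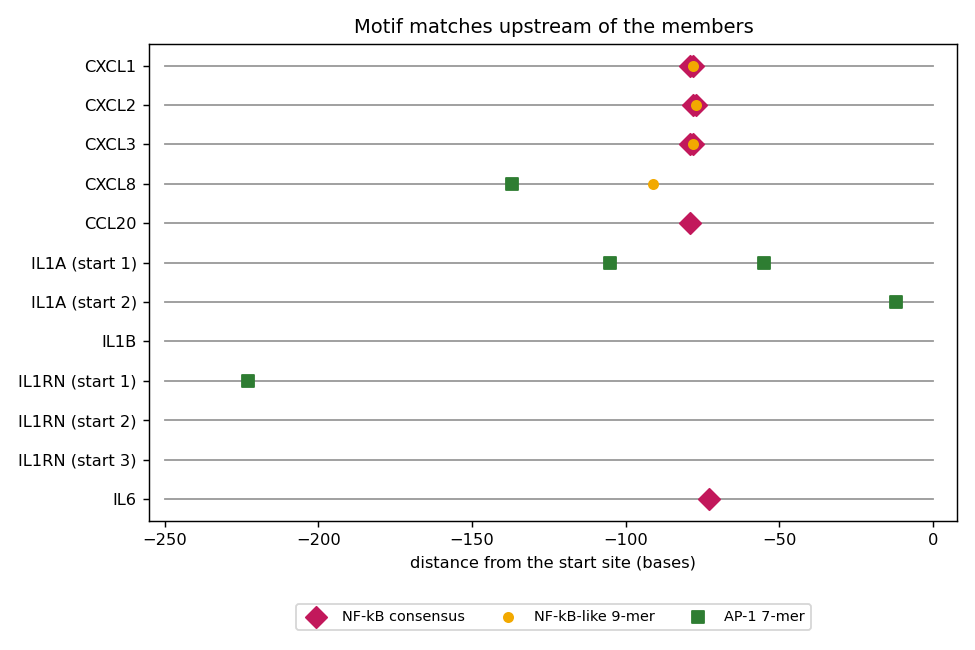
Position of motif matches (x axis, bases before the RefSeq start site at 0) for the 9 members with an entry, 1 line per start site; diamonds mark the NF-kB consensus, circles the NF-kB-like run of 9 bases and squares the AP-1 motif of 7 bases. The consensus matches of CXCL1, CXCL2, CXCL3, CCL20 and IL6 lie between 79 and 73 bases before the start, and CXCL8 has the NF-kB-like run at 91 and no consensus match.

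The interleukin-1 agonists showed the other order of the libraries. IL1B read 8.19 with siNT, 5.72 with siAkt1-22 and 7.26 with siAkt1-58 (11719916_at). The siAkt1-22 library was 5.55-fold below siNT and the siAkt1-58 library 1.91-fold. Among the 9 members only IL1B was lower by 1.5-fold or more with each siRNA, against 3.58% of all genes, and 0 members were at least 1.5-fold higher with both, against 3.2%. Its mean difference was -1.70 ± 1.09 (SD, n = 2), and with siAkt1-22 it was number 53 from the lowest of 12779 genes. IL1A read 9.95 with siNT, 7.87 with siAkt1-22 and 9.64 with siAkt1-58 (11725198_at). The siAkt1-22 library was 4.24-fold below siNT and the siAkt1-58 library 1.24-fold, and the mean difference was -1.20 ± 1.25 (SD, n = 2). For both genes the siAkt1-22 library, in which the poly-A spikes also had a median of -0.56, was lowest. The part of the spikes' shift in these differences was not tested. Each gene had 1 probe set, so no second one bears on these values.

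IL18 and the antagonist IL1RN stayed within 1.5-fold of siNT in each library. IL18 read 8.02 with siNT, 7.97 with siAkt1-22 and 8.48 with siAkt1-58 (11727092_x_at). IL1RN read 4.31, 4.50 and 4.57 in its brightest probe set (11719754_s_at), and 4.20 in all 3 libraries in the other (11740722_a_at). The mean differences were 0.20 ± 0.36 (SD, n = 2) for IL18 and 0.23 ± 0.05 (SD, n = 2) for IL1RN. IL1RN was the only member above siNT with both siRNAs, against 30.9% of all genes, and its level was near the filter level.

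IL6, a cytokine of the acute phase response that signals through IL6R and IL6ST, read 5.53 with siNT, 6.65 with siAkt1-22 and 5.03 with siAkt1-58 (11746463_a_at). It was 2.16-fold higher with siAkt1-22 and 1.42-fold lower with siAkt1-58, and the siRNAs were 3.08-fold apart. A dimmer IL6 probe set (11760425_a_at) read 4.24, 4.50 and 4.24, differences of 0.26 and 0. The mean of both probe sets was 0.69 with siAkt1-22, short of 2-fold.

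**Figure D3:**
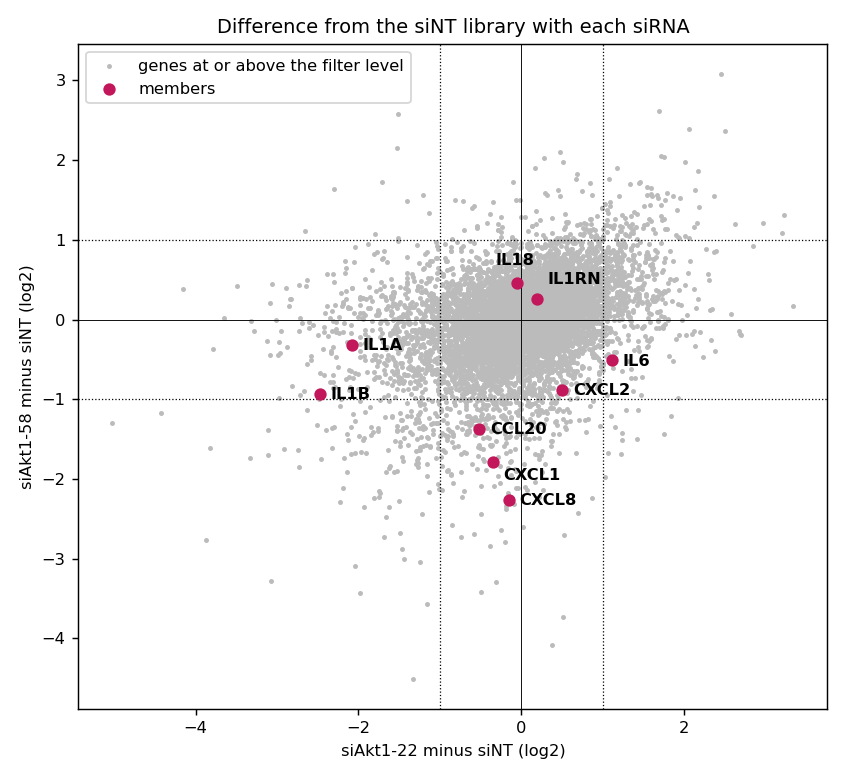
Difference from siNT with siAkt1-22 (x axis, log2) and with siAkt1-58 (y axis, log2) for the 12779 genes at or above the filter level (grey) and the 9 members among them (coloured); dotted lines mark 2-fold. CXCL8, CXCL1 and CCL20 lie below the 2-fold line of siAkt1-58, IL1A and IL1B to the left of that of siAkt1-22, and both axes share the siNT library.

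Set directly against each other, the siRNAs were at least 2-fold apart in 6 of the 9 members. CXCL8 (a siAkt1-22 minus siAkt1-58 difference of 2.11), IL6 (1.62), CXCL1 (1.43) and CXCL2 (1.38) were higher with siAkt1-22, where 5% of all genes were at least 2-fold higher. IL1A (-1.77) and IL1B (-1.54) were lower with siAkt1-22, where 5.28% of all genes were at least 2-fold lower. CCL20 (0.86), IL18 (-0.51) and IL1RN (-0.07) were less than 2-fold apart. With 1 library per siRNA these values have no replicate check.

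CXCL8, CXCL1, CXCL3 and CXCL2 lie in 1 row of 9 protein-coding genes on chromosome 4, in this order, with CXCL6, PF4V1, PF4, PPBP and CXCL5 between them. The neighbours had little signal: CXCL6, PF4, PPBP and CXCL5 were below the filter level, and PF4V1, at 4.31 with siNT, was at -0.15 and -0.09. IL1A and IL1B are the first 2 of 9 genes on chromosome 2, and IL1RN is the last. IL37, the next gene after IL1B and an anti-inflammatory member of the family, read 5.55 with siNT, 4.85 with siAkt1-22 and 4.78 with siAkt1-58. Its differences of -0.70 and -0.77 were alike with both siRNAs, in contrast to IL1A and IL1B. IL36RN was at -0.01 with each siRNA, and IL36G, IL36A, IL36B and IL1F10 were below the filter level.

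**Figure D4:**
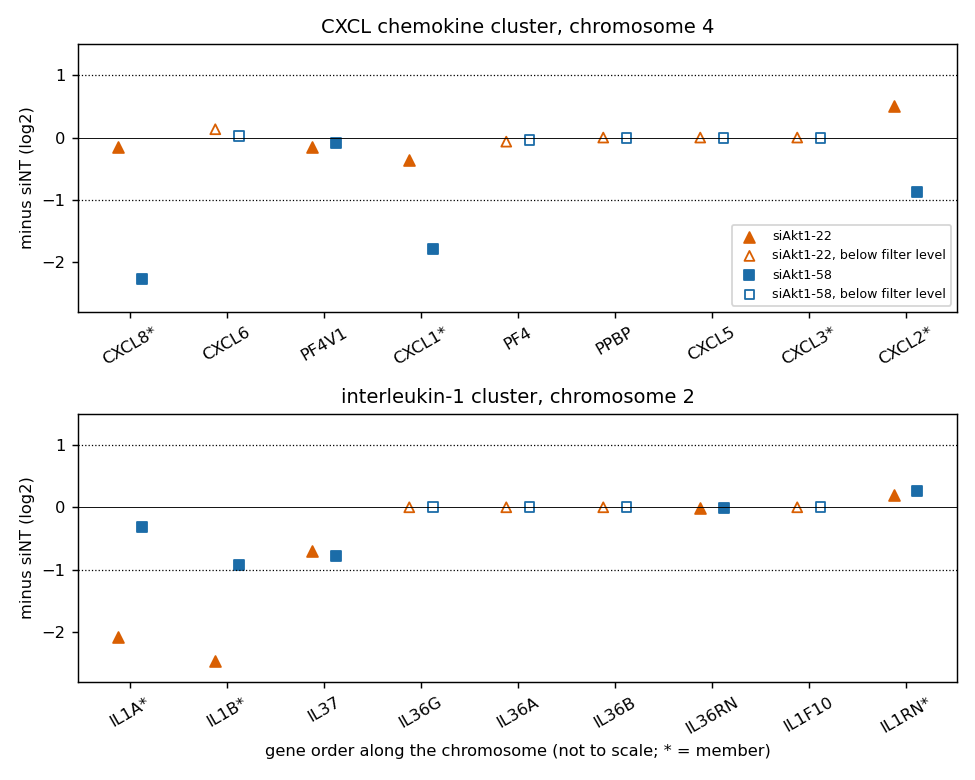
Difference from siNT (y axis, log2) with siAkt1-22 (triangles) and siAkt1-58 (squares) for the protein-coding genes from CXCL8 to CXCL2 and from IL1A to IL1RN in their order on the chromosome; open symbols mark genes below the filter level and asterisks mark members. In the upper panel CXCL8 and CXCL1 lie more than 1 unit below 0 with siAkt1-58, and in the lower panel IL1A and IL1B do so with siAkt1-22.

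The rest of the pathway was followed through 7 lists of genes. No list gene was at least 2-fold from siNT in 1 direction with both siRNAs, against 0.736% of all genes higher and 1.17% lower. None passed limma either, as no gene of the 12779 did (0%, lowest Benjamini-Hochberg adjusted p = 0.607; 954 genes had an unadjusted p under 0.05); with 1 residual degree of freedom such a test says little about a single gene. Of 20 other chemokine genes 5 reached the filter level, and 1 of them was past 2-fold, higher with siAkt1-22, against 4.4% of all genes. CCL5, a T cell and monocyte attractant, read 4.86 with siNT, 6.66 with siAkt1-22 and 4.88 with siAkt1-58. The siAkt1-22 library was also highest in its dimmer probe sets, at 0.85 and 1.20 above siNT. CX3CL1 was at -0.55 and 0.09, and CXCL16 at 0.44 and 0.07. CXCL5 and CXCL6, the closest relatives of the members among them, were below the filter level. The list's median difference was 0.07 with each siRNA, beside 0 for all genes. Among 7 other interleukin-1 family ligands, only IL37 and IL36RN reached the level, with list medians of -0.36 and -0.39.

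Of 15 receptors and decoys 10 reached the filter level, with medians of -0.01 and 0. With siAkt1-22, 1 receptor gene was past 2-fold (IL6R, lower), and with siAkt1-58 there were 2 (IL6R higher, IL6ST lower). Of all genes, 5.97% were at least 2-fold lower with siAkt1-22, and 1.54% were higher and 3.58% lower with siAkt1-58. IL6R, the ligand-binding chain of the IL6 receptor, read 6.70 with siNT, 4.98 with siAkt1-22 and 8.43 with siAkt1-58. The dimmer IL6R probe sets at that level pointed the same way, at -0.98 and 1.57, and at -0.06 and 0.96. The order of the libraries for IL6R was thus the reverse of that for IL6. IL6ST, the signalling chain gp130, was at -0.68 and -1.43, and all 8 of its probe sets were below siNT with both siRNAs. IL1RAP, the co-receptor of IL1R1, was at -0.72 and 0.92 in its brightest probe set but at -0.94 and -0.27 in another. CXCR1, CXCR2 and CCR6, the receptors of the chemokine members, were within 0.22 of siNT, and IL1R1 was below the filter level.

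Genes of interleukin-1 release and processing had 11 of 14 members at the filter level, with medians of 0.41 and 0.18. A different gene was past 2-fold higher with each siRNA (AIM2 and PYCARD), and NEK7 was past 2-fold lower with siAkt1-58. Beside these, 4.4% of all genes were at least 2-fold higher with siAkt1-22, and 1.54% were higher and 3.58% lower with siAkt1-58. The DNA sensor AIM2 was at 1.01 and -0.55, the inflammasome adaptor PYCARD at 0.19 and 1.08, and the NLRP3 partner NEK7 at 0.17 and -1.68. CASP1, which cleaves the precursors of IL1B and IL18, was at -0.44 and 0.18. In the chain from the interleukin-1 receptor to NF-kB, 16 of 18 genes were at the level, with medians of 0.03 and 0. With siAkt1-22, 2 of the 16 were at least 2-fold lower and 0 higher, and with siAkt1-58 there were 0 in each direction. The shares of all genes were 5.97% lower and 4.4% higher with siAkt1-22, and 3.58% and 1.54% with siAkt1-58. The adaptor TAB2 was at -1.47 and -0.02, the IKK subunit CHUK at -1.12 and -0.58, and the kinase IRAK2 at 0.99 and 0.52. The second IRAK2 probe set, dimmer, gave 0.09 and -0.16. The NF-kB subunits RELA (0.36 and -0.01), NFKB1 (-0.39 and -0.73), NFKB2 (0.29 and 0.05), RELB (0.80 and -0.21) and REL (0.85 and 0.92) were within 2-fold of siNT. REL was the 1 gene of this list at least 1.5-fold higher with both siRNAs, against 3.2% of all genes.

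NF-kB inhibitors and target genes had 18 of 23 genes at the filter level, with medians of 0.05 and 0. With siAkt1-22, 3 of the 18 were at least 2-fold higher and 0 lower, and with siAkt1-58, 1 was at least 2-fold lower and 0 higher, against the 4.4% and 3.58% of all genes. TNFAIP3, the ubiquitin-editing enzyme A20 that shuts off NF-kB signalling, read 7.94 with siNT, 9.16 with siAkt1-22 and 6.26 with siAkt1-58, and 0.99 and -1.31 were the differences in its second probe set. The order of the libraries for TNFAIP3 was that of CXCL2 and IL6. NFKBIZ, a nuclear cofactor needed for induction of IL6, was at 1.40 and -0.73, and the mitochondrial dismutase SOD2 at 1.32 and -0.20. Dimmer SOD2 probe sets were at 0.59 and 0.12 with siAkt1-22, and the mean over all of them, 0.51, was short of 2-fold. TNF, CSF1 and ICAM1 had differences of 0 with both siRNAs, exact ties of the array summary, and NFKBIA was at 0.96 and -0.17. The list did not share 1 order of the libraries. IER3, at 10.4 with siNT, went the other way at -0.84 and 0.33, as did TNIP1 at -0.58 and 0.17 in its brightest probe set. All 9 factors of AU-rich mRNA decay and stability were at the level, with medians of -0.02 and -0.09. With siAkt1-22, 1 of the 9 was past 2-fold higher and 2 past 2-fold lower, and with siAkt1-58 none was, against 4.4% of all genes higher and 5.97% lower with siAkt1-22. ZFP36, which speeds the decay of cytokine mRNAs, was at 1.03 and 0.10, while its relatives ZFP36L1 and ZFP36L2 were at -1.23 and -0.74, and at -1.36 and -0.42. Another ZFP36L1 probe set was at -1.06 and -0.79, and its 3 dimmest lay within 0.09 of siNT. The mean over its probe sets was -0.45 and -0.32, and that of ZFP36L2 with siAkt1-22 was -0.92, so neither was past 2-fold on average. The same holds for IL6R with siAkt1-22 (-0.79), AIM2 with siAkt1-22 (0.90) and PYCARD with siAkt1-58 (0.96).

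**Figure D5:**
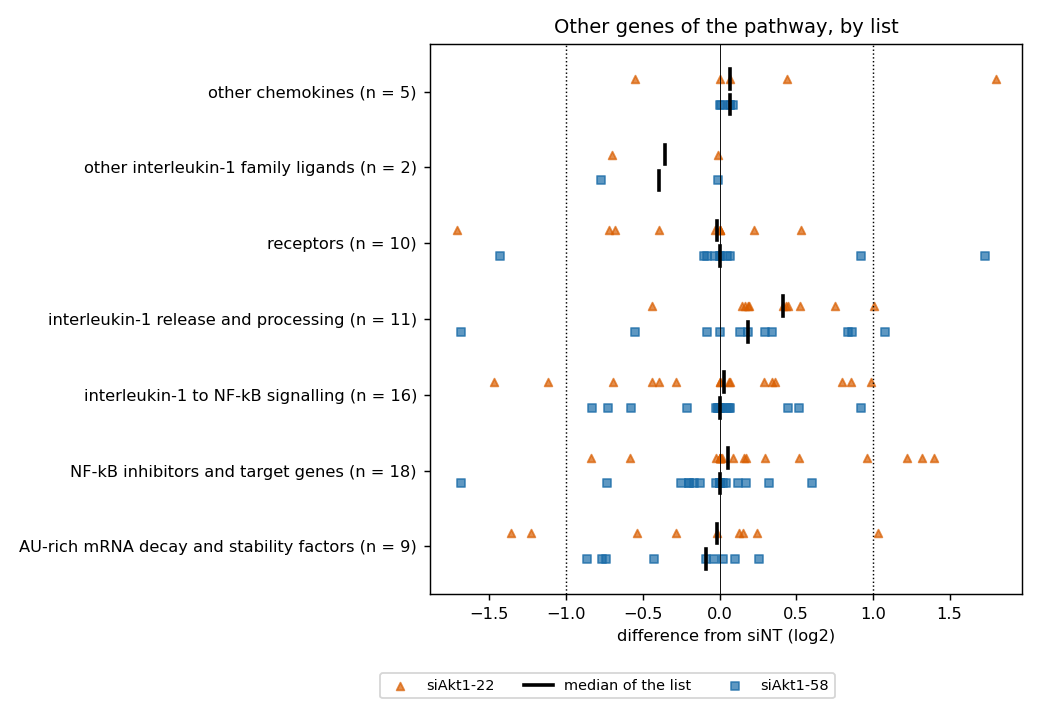
Difference from siNT (x axis, log2) of the genes at or above the filter level in 7 pathway lists, with siAkt1-22 (triangles) and siAkt1-58 (squares); black bars are list medians and dotted lines mark 2-fold. List medians lie between -0.39 and 0.41, and the genes past 2-fold differ between the siRNAs.

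The member with the largest difference was IL1B with siAkt1-22. By the distance between the pairs of log2 differences, the 3 genes nearest to it over the 2 siRNAs were CD24, a cell surface glycoprotein that read 8.34, 5.86 and 7.35 in the order siNT, siAkt1-22 and siAkt1-58, the nucleotide receptor P2RY2 (-2.31 and -0.86) and SDAD1 (-2.35 and -0.78). Their distances from IL1B were 0.068, 0.177 and 0.190 log2 units.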

How the data were processed

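Total RNA was labelled with an Affymetrix 3' in vitro transcription kit, per the labels' protocols. The authors deposited 1 log2 value for each probe set and library. The summary method was RMA, per the submitters' processing notes, and its version is not given in the sources used here. The log2 scale was read from the values (2.20 to 13.4; medians 4.59, 4.59 and 4.58). RMA equalises arrays and often returns exact ties, which 45.3% of 49386 probe sets showed between some pair of libraries. The number of arrays limits the precision.

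Genes came from the platform annotation, with 45253 probe sets of 1 gene, while 1327 with several and 2713 unlisted were left out. The symbol was taken from RefSeq by Entrez identifier for 45172 of them, whether or not it changed. The brightest probe set stood for a gene, and genes whose mean reached the 30th percentile were compared. A probe set of 1 gene whose identifier was not found kept its platform symbol. Genes were called at 2-fold, and limma 3.58.1 (R 4.3.3, lmFit, eBayes, Benjamini-Hochberg, threshold 0.05) compared both siAkt1 libraries with siNT. It was first run on simulated data whose noise was drawn from the difference between the siAkt1 libraries. Nothing is read from that run. With 1 siNT library, the spread behind a p-value here is the difference between the siAkt1 libraries alone, and these received different siRNAs. The labels do not say that libraries came from separate cultures, so technical spread cannot be separated from a difference between the siRNAs.

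Members, lists and rules were chosen with earlier results of these data known. Named genes were all members; in each list, genes at least 2-fold in 1 direction with both siRNAs and the 3 with the largest difference; AKT1, ACTB and GAPDH; and the 3 genes most like the leading member. GAPDH was at -0.05 and 0.02. Other genes named (markers, cluster neighbours, CASP1, NFKBIA, TNF, CSF1, ICAM1, IER3, TNIP1, CXCL5 and CXCL6) were chosen after their values were seen. So were the NF-kB subunits RELA, NFKB1, NFKB2, RELB and REL and the receptors CXCR1, CXCR2, CCR6 and IL1R1. Of fibroblast and endothelial markers, 3 of 10 reached the filter level. Start regions were taken from RefSeq (GRCh38.p14), which held 9 of 10 members; IL18 had no entry.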

Additional observations from a re-analysis of the deposited data

Results flagged for a closer look

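CXCL2 and IL6 lay on opposite sides of siNT with the 2 siRNAs and at least 2-fold apart. The difference of siAkt1-22 from siAkt1-58 was 1.38 for CXCL2, with the same order of the libraries in its other probe set, and 1.62 for IL6, where the dimmer probe set gave 0.26. With 1 library per siRNA these differences were not tested.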

How the results depend on the processing

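Averaging the probe sets of a gene left 0 members at least 2-fold higher with siAkt1-22, in place of IL6, and 2 in place of 3 at least 2-fold lower with siAkt1-58, where CXCL1 was at -0.98. A limit of 1.5-fold gave 5 members lower with siAkt1-58. With both siRNAs, 94 of all genes were higher by 2-fold or more and 150 were lower; averaged probe sets gave 43 and 99, probe sets as the unit 179 and 352, 1.5-fold 409 and 458, and leaving out a siAkt1 library 197 to 562 and 457 to 763. Of 88 recomputed member differences, 0 turned sign among those past 2-fold, and 2 (both IL1RN) moved by more than the SD between siRNAs. CXCL8 with siAkt1-22 went from -0.15 to 0.07 with averaged probe sets. A changed filter alters no difference, and averaging alters none for a gene with 1 probe set, so many of the 88 could not move. The SD is also wide where the siRNAs differ. With siAkt1-58, averaging took CXCL1 from -1.79 to -0.98 and CXCL8 from -2.26 to -1.51, and neither counted as moved. Limma called 0 genes under each setting run (485 to 2700 had an unadjusted p under 0.05). Limma could not be fitted without a siAkt1 library, as no residual degree of freedom is left. No paired analysis was possible because siNT has 1 library. Signal near the floor limits CXCL3 and IL1RN.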
